A study of Mus musculus with 6 samples.

Results

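The transcription regulators Six4, Eya1, Tbx15, Sox6, Prox1, Nfatc1, Tead1 and Vgll2, which are known to set fast or slow fibre genes in skeletal muscle, were followed in denervated and control biceps. Members were taken by gene symbol from the authors' table of expressed genes. Of the 8, 7 had a row among the 13105 genes of that table, and Prox1 had none, so its expression was not analysed here. The samples were whole biceps of CD-1 mice. In each of 3 mice the C5-T1 part of 1 brachial plexus had been cut out at 5 days of age. Both muscles were frozen at 26 days of age, which is 3 weeks later. The 3 denervated muscles came from the injured side and the 3 control muscles from the uninjured side of the same animals, so the control muscles also belonged to injured mice. The series sets muscle that grew against muscle whose growth was arrested. Values are TPM, a relative abundance that corrects for transcript length, obtained from log2 values that were read as log2(TPM + 1). Depth per value is unknown because the files carry no counts of reads, and the labels state 35 to 40 M reads or more per library.

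Adult muscle fibres differ in the myosins, troponins and calcium pumps they make, and the choice between fast and slow forms is set by the pattern of nerve activity acting on transcription factors. The homeoprotein Six4 with its Eya coactivators, and the T-box factor Tbx15, favour the fast glycolytic programme, and Sox6 represses slow genes in fast fibres. NFAT factors, which calcineurin sends to the nucleus when calcium rises with tonic activity, and Prox1 favour the slow programme, while Tead factors bind the MCAT element of many contractile genes and take up cofactors such as Vgll2.

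Because most genes of these libraries had higher deposited values after denervation, the members were read on a deposited and a scaled scale. The genes of the table held 68.8% to 70.4% of the full TPM total in control libraries and 77.3% to 80.3% in denervated libraries. Across 12268 tested genes the median log2 fold change, denervated against control, was 0.71 as deposited and 0.01 after division by median-of-ratios factors of 0.697 to 0.789 in control and 1.27 to 1.6 in denervated libraries. A call is an adjusted p under 0.05 in limma. In these whole muscles, fewer cells of a type and less RNA per cell cannot be told apart. Summed markers of muscle fibres overlapped between the groups, at 13228 to 15139 TPM in control and 11785 to 15191 TPM in denervated libraries. That sum joins genes that went both ways, since as deposited Acta1 and Ckm were called lower and Mb, Ttn and Des higher. After scaling 2 of these 5 were called lower and 0 higher.

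No member was called higher on both scales, and none was called lower on both. As deposited, 2 of the 7 measured members, Six4 and Tead1, were called higher, where 69.9% of all tested genes were, and 0 were called lower, where 4.5% of tested genes were. With limma 0 members were lower at an unadjusted p under 0.05 as well, while the authors' deposited table gives 1, Vgll2. After scaling, 0 members were called higher, where 15.7% of tested genes were, and 0 were higher at an unadjusted p under 0.05. After scaling, 5 members were called lower, namely Eya1, Tbx15, Sox6, Nfatc1 and Vgll2, where 18.6% of tested genes were. At an unadjusted limma p under 0.05, 6 were lower after scaling, these and Tead1. The share of all tested genes at an unadjusted p under 0.05 was not computed on either scale. The 7 members had a median log2 fold change of 0.03 as deposited against 0.71 over all tested genes, and -0.79 after scaling against 0.01. All 7 members passed the filter on low values, and the members' groups did not overlap for 4 of 7 as deposited, where those of 76.3% of all tested genes did not. After scaling they did not overlap for 7 of 7, against 48.7% of all tested genes, though Tead1 was apart by a narrow margin only. On both scales 6 of the 7 members lay below the median of all tested genes, Six4 being the exception, and which members are called depends on the scale.

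**Figure D1:**
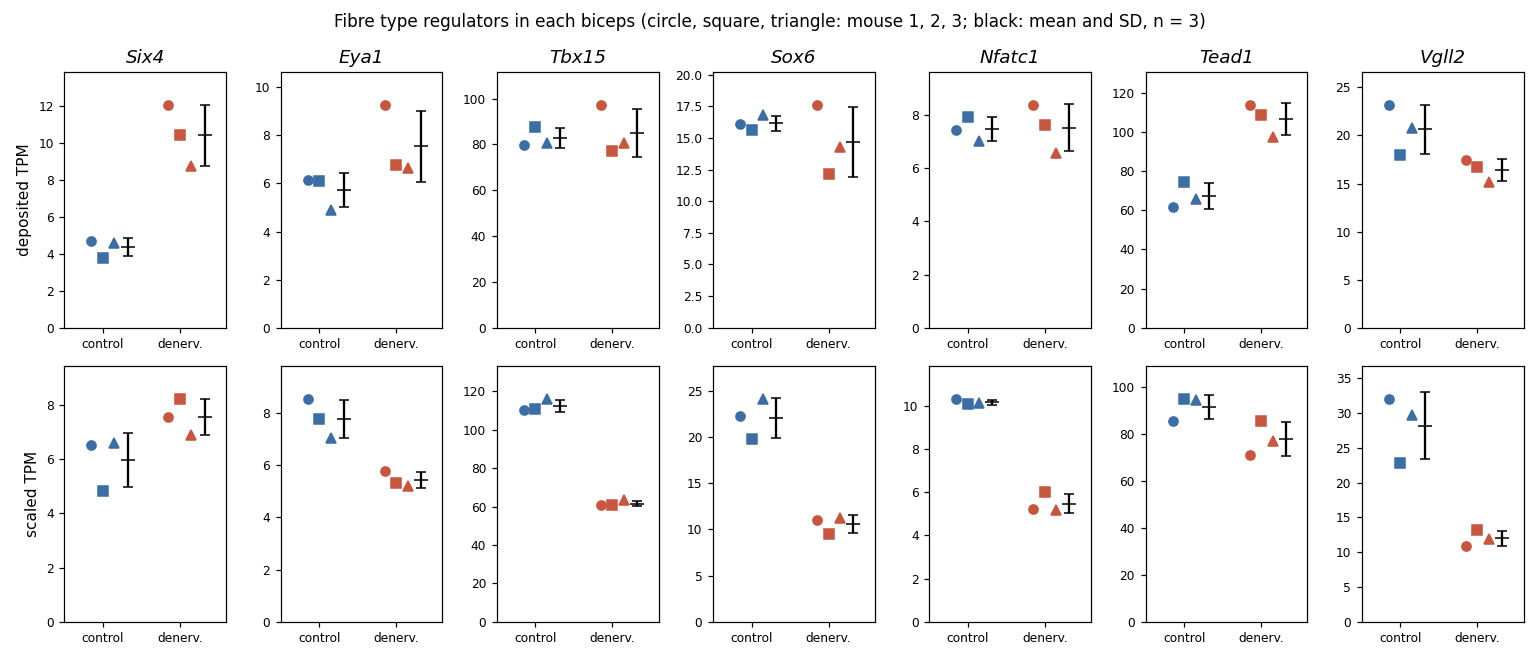
Abundance of the 7 measured regulators in each biceps, in TPM as deposited (upper row) and after median-of-ratios scaling (lower row), with circle, square and triangle for mice 1, 2 and 3 and black bars for the mean and SD of 3 muscles. Six4, Eya1 and Tead1 separate upward and Vgll2 downward in the upper row, and all members except Six4 separate downward in the lower row.

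Six4, a homeodomain factor that acts on fast fibre genes, had the largest rise among the members on the deposited scale. It measured 4.73, 3.80 and 4.58 TPM in control muscles of mice 1, 2 and 3 and 12.1, 10.4 and 8.79 TPM in their denervated muscles. The groups did not overlap, and the denervated muscle was higher in each mouse. Mean abundance went from 4.37 ± 0.50 to 10.4 ± 1.64 TPM (SD, n = 3), 2.39 times the control level. The log2 fold change was 1.08 ± 0.168 (SE, limma adjusted p = 0.000506). After scaling, Six4 stood at 6.53, 4.81 and 6.58 TPM in control and 7.55, 8.21 and 6.91 TPM in denervated muscles. The log2 fold change was then 0.30, with a 95% interval of -0.02 to 0.63 and an adjusted p of 0.134, so the scaled values gave no call. Against all tested genes the scaled change of Six4 lay at the 75.9th percentile. In the authors' deposited table Six4 had an adjusted p of 0.00348, and it was on neither of their lists of up and down genes.

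A window at an annotated start of Six4 is shown because it holds a match to the core of the MEF3 element, the site that Six4 and its relatives bind. Six4 lies on chromosome 12 at chr12:73099609-73113456 (minus strand, GRCm38). RefSeq gives 2 promoter windows for it on GRCm38.p6, short stretches that span an annotated start. The window at chr12:73113196-73113495 (minus strand) is printed 5′ to 3′, with capitals marking matches to the MEF3 core (TCAGGTT) and to the NFAT core (GGAAA), searched on both strands.
Six4: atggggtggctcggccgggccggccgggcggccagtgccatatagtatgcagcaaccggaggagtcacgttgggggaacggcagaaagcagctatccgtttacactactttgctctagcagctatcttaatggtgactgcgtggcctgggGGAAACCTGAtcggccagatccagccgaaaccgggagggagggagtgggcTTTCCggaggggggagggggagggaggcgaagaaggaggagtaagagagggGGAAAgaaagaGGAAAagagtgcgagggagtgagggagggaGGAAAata
The MEF3 core match begins 97 bases before the start that this window spans, on the opposite strand, and overlaps 1 of the 5 NFAT core matches of the window. That start lies downstream of the gene end at 73113456 given above, so the match falls within the gene as annotated there. The MEF3 core occurs in 4.07% and the NFAT core in 61.3% of 32851 mouse promoter windows of this length. These are letter matches, and binding was not measured.

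Eya1, a phosphatase and coactivator that Six4 recruits to its targets, moved much less than Six4. It measured 6.16, 6.11 and 4.90 TPM in control and 9.25, 6.77 and 6.63 TPM in denervated muscles of mice 1, 2 and 3. The denervated muscles were all above the control muscles as deposited, by a narrow margin. The log2 fold change of 0.34 ± 0.176 (SE) was not called (limma adjusted p = 0.105). After scaling the order turned, to 8.51, 7.74 and 7.03 TPM in control and 5.78, 5.31 and 5.21 TPM in denervated muscles. The scaled log2 fold change was -0.44 ± 0.107, with an adjusted p of 0.0173. This call was lost when single libraries were left out, at an adjusted p of 0.0523 without control replicate 1, 0.0650 without denervated replicate 2 and 0.0727 without denervated replicate 3.

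Tbx15, a T-box factor of glycolytic fibres, was the most abundant member in control muscle, and its deposited values overlapped between the groups. It measured 79.8, 87.6 and 80.7 TPM in control and 97.1, 77.2 and 80.6 TPM in denervated muscles. Only the denervated muscle of mouse 1 stood above all controls. The log2 fold change was 0.03, with a 95% interval of -0.28 to 0.35 and a limma adjusted p of 0.840. Without denervated replicate 1 its sign turned, to -0.066. After scaling, Tbx15 stood at 110, 111 and 116 TPM in control and 60.7, 60.7 and 63.3 TPM in denervated muscles. These scaled groups lay far apart relative to their spread, at 0.548 times the control mean, and the log2 fold change was -0.86 ± 0.0739 (SE, limma adjusted p = 0.000167). The scaled differences of the 3 mice were -0.85, -0.86 and -0.86.

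Sox6, an HMG-box factor that represses slow fibre genes in fast fibres, had a deposited level that overlapped between the groups. It measured 16.1, 15.6 and 16.8 TPM in control and 17.6, 12.1 and 14.3 TPM in denervated muscles. The denervated muscle of mouse 1 was the highest of all 6 and those of mice 2 and 3 were the lowest. The log2 fold change was -0.14, with a 95% interval of -0.51 to 0.22 and a limma adjusted p of 0.428. After scaling, Sox6 stood at 22.2, 19.8 and 24.1 TPM in control and 11, 9.53 and 11.2 TPM in denervated muscles. The scaled groups did not overlap, and the scaled log2 fold change of -0.99 ± 0.111 (SE) had an adjusted p of 0.000555, at the 7.19th percentile of all tested genes. Sox6 lies on chromosome 7 at chr7:115470872-116038796 (minus strand) and is overlapped by 2 genes on the opposite strand. One of them, Sox6os, had a row, at 1.69 to 2.96 TPM in control and 0.566 to 1.62 TPM in denervated muscles. No source used here states a stranded library, so reads of this pair cannot be told apart where they overlap.

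The 3′ UTR of Sox6 is shown because microRNAs carried within slow myosin genes, known in mouse to act on Sox6, match it. The mature sequences are from RefSeq (GRCm38.p6), with the seed, bases 2 to 8, in capitals. miR-499-5p lies within Myh7b at chr2:155622893-155622913 (plus strand) and miR-208b-3p within Myh7 at chr14:54975710-54975731 (minus strand), both outside the exons of their host's coding transcripts.
mmu-miR-499-5p: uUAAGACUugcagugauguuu
mmu-miR-208b-3p: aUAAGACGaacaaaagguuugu
The longest annotated 3′ UTR of Sox6, of 6046 bases in GENCODE M21, holds 3 matches to the miR-499-5p seed and 1 to the miR-208b-3p seed. The sites are printed 5′ to 3′ from the minus strand of chromosome 7, with the seed match in capitals.
Sox6 site 1 for miR-208b-3p, chr7:115476635-115476656: tctctgcccatcgcCGTCTTAt
Sox6 site 1 for miR-499-5p, chr7:115476626-115476647: atcgccgtcttatgAGTCTTAc
Sox6 site 2 for miR-499-5p, chr7:115476313-115476334: ttaactattttaaaAGTCTTAc
Sox6 site 3 for miR-499-5p, chr7:115476291-115476312: aggagacactgcaaAGTCTTAg
The first site of each microRNA lies in 1 overlapping stretch. Of 636 genes with a 3′ UTR within 20% of this length, 39.6% hold at least 1 miR-499-5p seed match and 5.66% a miR-208b-3p seed match. In the longest 3′ UTRs of the other 7 regulators, Prox1 included, neither match occurs. In the authors' deposited table, the column of predicted microRNA sites has 5 entries for miR-499, miR-208 or miR-206 beside Sox6, 3 beside Six4, 1 each beside Vgll2 and Nfatc1, and 0 beside Eya1, Tbx15 or Tead1. The microRNAs themselves were not measured in these libraries. Their host genes were, and both were called higher on both scales: Myh7, the slow and cardiac myosin heavy chain, went from 17.1 ± 2.70 to 318 ± 55.7 TPM and Myh7b from 0.925 ± 0.170 to 15.8 ± 8.58 TPM (SD, n = 3). Of the 31-base words of Myh7, 27.9% also occur in other genes, chiefly its neighbour Myh6, so part of its signal is uncertain.

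Tead1, the TEA domain factor that binds MCAT elements, was the second most abundant member in control and the most abundant in denervated muscle. It measured 61.9, 74.7 and 65.6 TPM in control and 114, 109 and 97.7 TPM in denervated muscles. The groups did not overlap, and the denervated level was 1.58 times the control level, and the log2 fold change was 0.66 ± 0.139 (SE, limma adjusted p = 0.0024). That change is close to the median of all tested genes, at the 44.9th percentile. After scaling, Tead1 stood at 85.5, 94.6 and 94.2 TPM in control and 71.1, 85.3 and 76.7 TPM in denervated muscles. The lowest control and the highest denervated muscle were thus nearly equal. The scaled log2 fold change of -0.23 had an adjusted p of 0.104 and was not called, with a 95% interval of -0.46 to -0.01.

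Vgll2, a cofactor of Tead factors found mainly in skeletal muscle, had the largest scaled fall of the members when all libraries were fitted. Without mouse 1 it came to -0.96 on the log2 scale, next to -0.97 for Sox6. It measured 23.1, 18.0 and 20.7 TPM in control and 17.4, 16.7 and 15.2 TPM in denervated muscles. Every denervated muscle was below every control muscle even as deposited, which held for no other member. The deposited log2 fold change of -0.31 ± 0.149 (SE) had a limma adjusted p of 0.0853. After scaling, Vgll2 stood at 32, 22.8 and 29.7 TPM in control and 10.9, 13.1 and 11.9 TPM in denervated muscles, 0.425 times the control mean. The scaled log2 fold change was -1.16 ± 0.142, with an adjusted p of 0.000851, at the 5.19th percentile of all tested genes. The size differed between animals, at -1.47, -0.75 and -1.25 in mice 1, 2 and 3. In the authors' deposited table Vgll2 had a p of 0.0336 and an adjusted p of 0.0923.

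Nfatc1, the calcineurin-dependent factor through which nerve activity reaches slow fibre genes, had deposited values that overlapped between the groups. It measured 7.45, 7.94 and 7.04 TPM in control and 8.37, 7.63 and 6.59 TPM in denervated muscles. The denervated muscle was the higher of the pair in mouse 1 and the lower in mice 2 and 3. The log2 fold change was 0.00, with a 95% interval of -0.34 to 0.35 and a limma adjusted p of 0.978. Its sign turned when any of 3 libraries was left out, to -0.033 without control replicate 3, -0.066 without denervated replicate 1 and -0.0064 without denervated replicate 2. After scaling, Nfatc1 stood at 10.3, 10.1 and 10.1 TPM in control and 5.23, 5.99 and 5.17 TPM in denervated muscles. The scaled log2 fold change was -0.79 ± 0.0971 (SE), with an adjusted p of 0.000865. Nfatc1 lies on chromosome 18 (80606205 to 80713071, minus strand, GRCm38).

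The remaining members lie on chromosome 1 (Eya1, 14168954 to 14310235, minus strand), chromosome 3 (Tbx15, 99240381 to 99354259, plus strand), chromosome 7 (Tead1, 112679318 to 112906807, plus strand) and chromosome 10 (Vgll2, 52022502 to 52028471, plus strand) of GRCm38. Few of the members' 31-base words occur in other genes, with 1.42% for Six4, 0.566% for Tbx15, 0.387% for Tead1, 0.214% for Eya1 and 0.0% for Sox6, Nfatc1 and Vgll2.

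The order of the members by TPM differed between the groups. In control muscle it ran Tbx15, Tead1, Vgll2, Sox6, Nfatc1, Eya1 and Six4, and the values of neighbours in that order did not overlap. In denervated muscle it ran Tead1, Tbx15, Vgll2, Sox6, Six4, Eya1 and Nfatc1. Vgll2 and Sox6 overlapped there, as did Six4 and Eya1, and Eya1 and Nfatc1. Six4, the least abundant member of control muscle, thus stood above Nfatc1 in every denervated library.

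**Figure D2:**
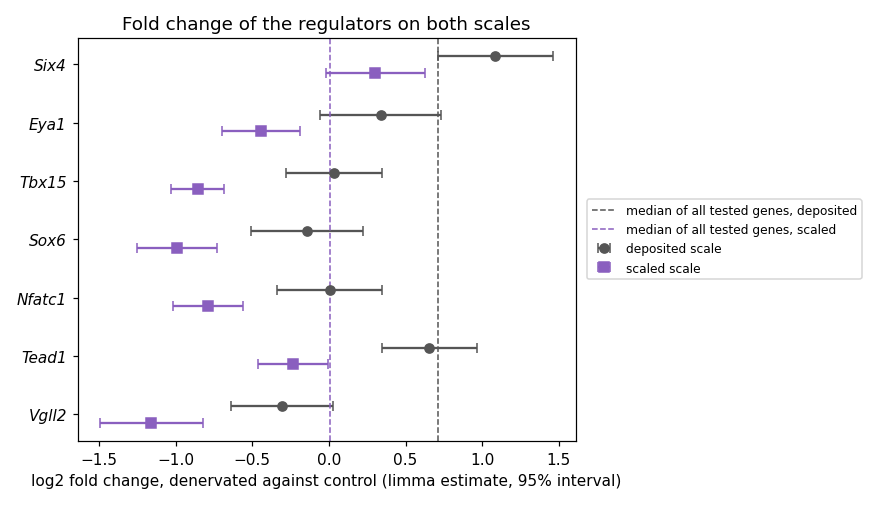
Log2 fold change of each measured regulator, denervated against control, with its 95% interval from limma, as deposited (grey circles) and after scaling (purple squares), with dashed lines at the median of all tested genes. The median is 0.71 as deposited and 0.01 after scaling, and Six4 is the only member right of it on both scales.

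Ratios between members within a library do not depend on how that library is scaled, and they separated Six4, Eya1 and Tead1 from the other 4. Of 21 pairs of measured members, a set added after the scale dependence had been seen, 14 had ratios that did not overlap between the groups. The share among pairs of all tested genes was not computed, so no excess can be read from this count. For single genes, the groups did not overlap for 76.3% of all tested genes as deposited and 48.7% after scaling. Six4 was higher relative to all 6 others in denervated muscle. Tead1 and Eya1 were each higher relative to 4 others and lower relative to Six4. Tbx15, Sox6, Nfatc1 and Vgll2 were each lower relative to Six4, Eya1 and Tead1, and their ratios to one another overlapped between the groups. The largest shift was that of Six4 over Vgll2, by 1.57 on the log2 scale, followed by Six4 over Sox6 (1.41) and Six4 over Nfatc1 (1.25).

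A further look was given to 4 ratios chosen for their biology, 3 of them among the pairs above, and none overlapped between the groups. A pair of ratios with Prox1 could not be formed. Vgll2 over its partner Tead1 stood at 0.374, 0.241 and 0.316 in control and 0.153, 0.154 and 0.155 in denervated muscles. The denervated ratios were nearly equal to one another, and the mean log2 ratio went from -1.71 ± 0.319 to -2.70 ± 0.0112 (SD, n = 3). Eya1 over its partner Six4 stood at 1.30, 1.61 and 1.07 in control and 0.766, 0.648 and 0.754 in denervated muscles. Eya1 was thus the more abundant of the pair in every control muscle and the less abundant in every denervated muscle, with a log2 difference of -0.86. Tbx15 over Six4 went from 4.25 ± 0.244 to 3.03 ± 0.157 on the log2 scale. Tead1 over its paralogue Tead4 stood at 11.4, 15.3 and 14.8 in control and 2.58, 3.58 and 2.58 in denervated muscles. Each exact two-sided permutation test of these 4 ratios gave p = 0.1 (0.1 after Benjamini-Hochberg adjustment over the 4), the smallest that 3 against 3 libraries allow. The test took the libraries as unpaired and did not use the pairing of muscles by mouse.

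**Figure D3:**
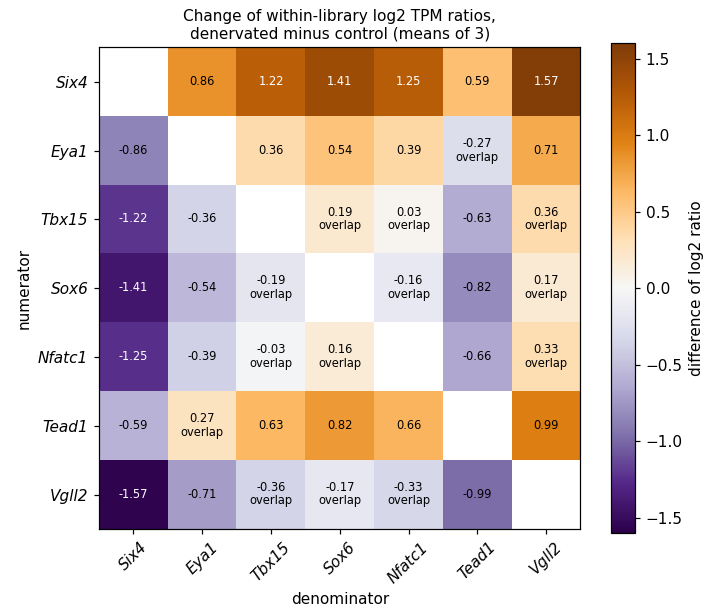
Change of the within-library log2 TPM ratio of each pair of measured regulators (row over column), denervated minus control, means of 3 libraries, with colour for the size and "overlap" where the groups' values overlapped. The Six4 row holds differences of 0.59 to 1.57, and the ratios among Tbx15, Sox6, Nfatc1 and Vgll2 all overlapped.

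Within their gene families, Eya1, Tead1, Nfatc1 and Vgll2 each made up a smaller share of the family's TPM in denervated muscle. These shares, added after the data were seen, do not depend on library scaling either. Eya1 held 35.0%, 33.9% and 28.0% of the Eya total in control and 18.8%, 17.8% and 18.6% in denervated muscles. Its share was lower in every denervated muscle, while that of Eya4 went from a mean of 31.3% to 44.3%, so that the leading Eya gene was Eya4 there. Tead1 held 79.5 ± 4.17% of the Tead total in control and 68.7 ± 3.10% in denervated muscle (SD, n = 3), against 5.82 ± 0.859% and 24.0 ± 3.30% for Tead4, a factor of myogenic differentiation. Nfatc1 went from 34.2 ± 1.06% to 23.9 ± 1.71% of the Nfatc total and Nfatc2 from 14.8% to 24.6%, while Nfatc3 remained the largest at 45.8% and 46.7%. Vgll2 went from 82.2 ± 3.57% to 63.8 ± 3.24% of the Vgll total. Every one of these 4 member shares had no overlap between the groups, and each exact two-sided permutation p was 0.1, the smallest possible, or 0.136 after adjustment over 15 shares. Lack of overlap was not particular to the members. The shares of Eya2, Eya4, Tead2, Tead4, Nfatc2, Vgll3 and Vgll4 did not overlap either, at the same p, while those of Eya3, Tead3, Nfatc3 and Nfatc4 did. These tests did not use the pairing of muscles by mouse. Six4, Tbx15 and Sox6 were not given family shares.

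**Figure D4:**
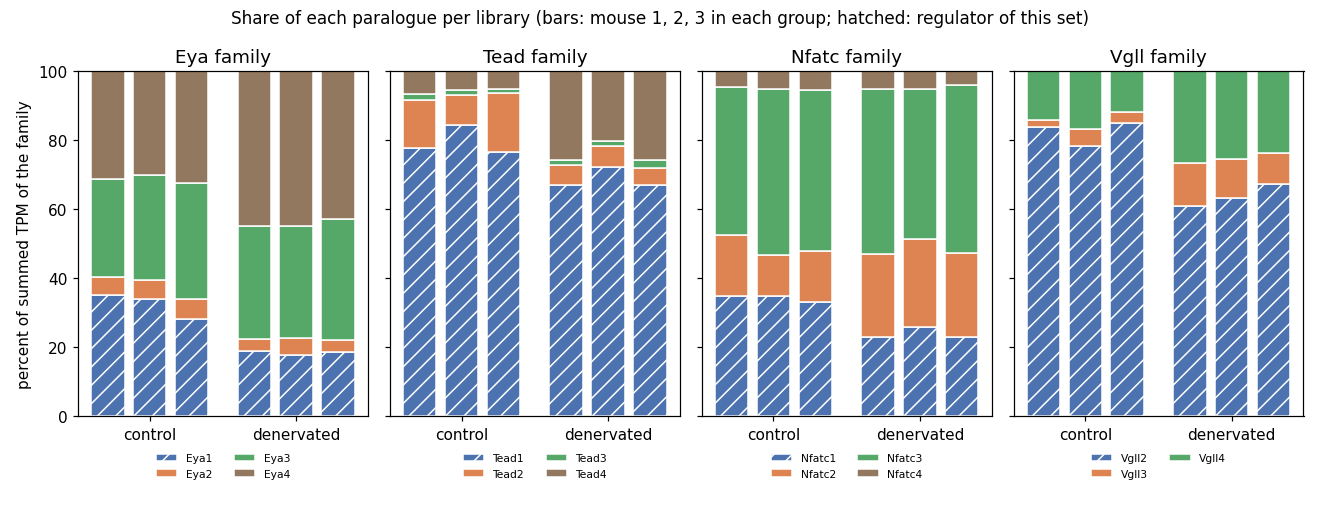
Share of each paralogue in the summed TPM of its family, in percent, 1 bar per library, with mice 1, 2 and 3 from left to right in each group and the studied regulator hatched. The hatched part is smaller in denervated muscle in all 4 families, those of Eya1, Tead1, Nfatc1 and Vgll2.

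Of 6 tested genes among 8 listed relatives and partners of Six4 and Eya1, 2 were called higher on both scales and 0 lower on both, where 15.7% and 4.5% of all tested genes were, a background that also holds for the lists that follow. The list had a median log2 fold change of 0.77 as deposited and 0.12 after scaling, against 0.71 and 0.01 over all tested genes. Eya4 went from 5.54 ± 0.118 to 18.2 ± 3.48 TPM (SD, n = 3), and its scaled log2 fold change was 0.72 (limma adjusted p = 0.0017). Eya3 followed at 0.37.

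Around Tead1 and Vgll2, 3 of 13 tested genes of the Tead, Vgll and Yap list were called higher on both scales and 0 lower on both, with medians of 0.75 and 0.04. Tead4 went from 4.91 ± 0.496 to 37.4 ± 6.86 TPM (scaled log2 fold change 1.87), while Tead1 did not pass after scaling. Cyr61, a target of Yap and Tead factors, had a scaled log2 fold change of 1.2, and Amotl1, a junction protein that binds Yap and the most abundant gene of the list, one of 0.80. Tead2 was called lower after scaling (-1.09) and not as deposited. Yap1 and Wwtr1, the coactivators that compete with Vgll proteins for Tead factors, were called higher as deposited and not after scaling.

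Around Nfatc1, 1 of 16 tested genes of the calcineurin and NFAT list was called higher and 1 lower on both scales, with medians of 0.52 and -0.23. Myoz1, calsarcin-2, an inhibitor of calcineurin at the Z-disc of fast fibres, went from 282 ± 39.9 to 127 ± 20.0 TPM (scaled log2 fold change -2.05). Cabin1, another calcineurin inhibitor, was called higher at 0.34 after scaling, a call lost with the mouse as a block. Myoz2, the slow fibre and cardiac calsarcin and the most abundant gene of the list, went from 158 ± 43.7 to 330 ± 53.5 TPM and was called higher as deposited only. Rcan1, whose transcription calcineurin drives, stood at 25.2 ± 5.62 and 40.8 ± 4.48 TPM, called higher as deposited and not after scaling. Of the calcineurin subunits, Ppp3ca, Ppp3cb and Ppp3r1 were called higher as deposited. After scaling Ppp3cb, Ppp3cc and Ppp3r1 were called lower, so that the direction of Ppp3cb and Ppp3r1 turned with the scale.

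Among 24 tested genes of 28 other regulators of fibre type, 7 passed as higher and 2 as lower on both scales, with medians of 0.79 and -0.11. Hdac4, a class IIa deacetylase that restrains MEF2 factors, went from 5.46 ± 0.538 to 52.7 ± 7.80 TPM (scaled log2 fold change 2.22), and 21.9% of its 31-base words occur in other genes. Myod1, a myogenic factor richer in fast fibres, had a scaled change of 2.19. Ppargc1a, a coactivator of the oxidative slow programme, went from 43.6 ± 4.51 to 27.6 ± 1.88 TPM and fell on both scales (log2 fold changes -0.64 and -1.51). Mef2c, the most abundant gene of this list, went from 128 ± 7.17 to 286 ± 32 TPM, and with the mouse as a block it was no longer called after scaling.

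The contractile genes that these factors are known to govern had larger median changes than the factors. Of 16 fast fibre genes, 11 were called lower on both scales and 0 higher on both, with medians of -0.63 and -1.53. Myh4, the fast IIb myosin heavy chain, went from 2776 ± 221 to 1012 ± 295 TPM (scaled log2 fold change -2.39), although 30.4% of its 31-base words occur in other genes. Mybpc2, which encodes the fast form of myosin binding protein C, had a control level of 342 ± 48.5 TPM and a denervated level of 57.6 ± 15 TPM (scaled -3.47), and Mylk2, the skeletal myosin light chain kinase, from 34.5 ± 3.76 to 8.67 ± 1.33 TPM (scaled -2.71). Myl1, the most abundant gene of the list, was called higher as deposited and not after scaling (-0.19). Of 15 slow fibre genes, 12 were called higher on both scales and 0 lower on both, with medians of 3.01 and 2.36. Mybpc1, with the highest control level of that list, did not rise, at 650 ± 19.0 TPM in control and 599 ± 100 TPM in denervated muscles. It was not called as deposited and was called lower after scaling (-1.03). Tnnc1, slow troponin C, went from 27.3 ± 2.77 to 628 ± 87.0 TPM, Tnni1, slow troponin I, from 37.5 ± 3.13 to 832 ± 167 TPM and Sln, sarcolipin, from 79.9 ± 7.88 to 1881 ± 417 TPM. Tnnt1, slow troponin T and the most abundant gene of the list over all 6 libraries, reached 1875 ± 196 TPM in denervated muscle. These shifts are those of the whole muscle, and no value here ties any of them to a member.

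**Figure D5:**
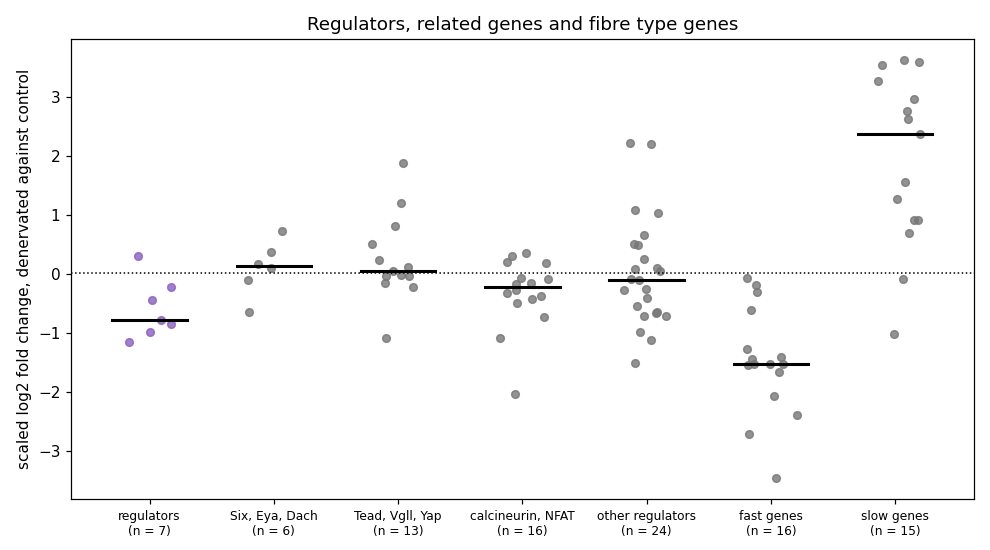
Scaled log2 fold change, denervated against control, of each measured regulator and of each tested gene of 6 related lists, with a bar at each list's median and a dotted line at the median of all tested genes (0.01). The regulators have a median of -0.79, the fast fibre genes -1.53 and the slow fibre genes 2.36.

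Promoter windows of fast and slow genes are shown because both hold the MCAT element (CATTCC) that Tead1 binds, at nearly the same distance from the start. They are RefSeq windows on GRCm38.p6, 5′ to 3′, with the match in capitals: Tnnc1 at chr14:31208062-31208361 (plus strand) and Mybpc2 at chr7:44524620-44524919 (minus strand).
Tnnc1: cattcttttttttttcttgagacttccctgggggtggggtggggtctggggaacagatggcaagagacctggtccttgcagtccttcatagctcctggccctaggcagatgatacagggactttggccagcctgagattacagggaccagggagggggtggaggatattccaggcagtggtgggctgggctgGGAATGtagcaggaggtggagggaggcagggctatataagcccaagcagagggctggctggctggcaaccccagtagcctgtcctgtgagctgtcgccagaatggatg
Mybpc2: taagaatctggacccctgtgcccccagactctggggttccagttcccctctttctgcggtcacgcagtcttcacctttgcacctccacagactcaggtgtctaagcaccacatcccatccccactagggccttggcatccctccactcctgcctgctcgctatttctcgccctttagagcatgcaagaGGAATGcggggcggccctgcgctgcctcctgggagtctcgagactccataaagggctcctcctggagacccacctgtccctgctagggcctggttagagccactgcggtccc
The match begins 58 bases before the start in Tnnc1, which rose, and 62 bases before it in Mybpc2, which fell, and lies on the opposite strand in both. Over all windows with a sequence, MCAT occurred in 4 of 11 windows of fast genes, 3 of 18 windows of slow genes and 2 of 11 windows of the members, against 14.7% of all 32851 windows. The Sox core AACAAT occurred in 1 of 11 fast, 5 of 18 slow and 1 of 11 member windows, against 10.7% of all. The MEF3 core occurred in 0 fast, 1 slow and 2 member windows, and the T-box site GGTGTGA in 0 fast, 0 slow and 1 member window, against 3.98% of all. The NFAT core occurred in 6 fast, 13 slow and 10 member windows. Windows were found for 10 of 16 fast genes, 13 of 15 slow genes and 4 of the 8 regulators, with several windows for some genes. Windows of a gene can overlap, as those of Myh7 and of Six4 do, so the counts are not of independent windows. The Sox core matches in the Myh7 windows are the same sites counted again. Sox6 has more windows than any other regulator, and the member windows with MCAT are both of Sox6. These are letter matches in short windows, and no binding was measured.

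Genes whose 6 scaled values lay nearest to a member's were found by the root mean square difference of scaled log2 values, each gene taken against its control mean. Predicted genes and pseudogenes were left out. The nearest to Six4 were Ppm1d (0.0318) and Dctn1 (0.0595), and to Eya1 they were Pdf (0.0231) and Mob2 (0.0374). Tbx15 was matched most closely by Srf (0.0335), the serum response factor, and Dcun1d2 (0.0391). Jph2 (0.0566), a junctophilin of the triad, was among the nearest genes to Sox6. For Nfatc1 they were Iscu (0.0438) and Vapb (0.0508), for Tead1 Sgms2 (0.0248) and Creb1 (0.0309), and for Vgll2 Rmdn1 (0.0628) and Fam189a2 (0.0686). This likeness is over 6 libraries of 2 groups, so it reads little more than the size of the group difference and the spread.

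Markers of other cell types, some of which carry members, are given as summed deposited TPM per library and as calls of single genes on both scales, and their part in the members' values was not tested. Of 5 satellite cell markers 4 had a row and summed to 6.64 to 7.19 TPM in control and 18.7 to 23.9 TPM in denervated muscles, and 3 of these 4 were called higher on both scales. Pax7, the defining factor of satellite cells, stood at 0.615 ± 0.119 TPM in control and 2.80 ± 0.730 TPM in denervated muscles (SD, n = 3). Adipocyte markers, 5 of 5 with a row, summed to 198 to 299 TPM and 405 to 851 TPM, and 3 were called higher on both scales. The scaled median log2 fold changes of these lists were 0.66 and 1.07.

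Other marker lists depended on the scale. Macrophage markers, 4 of 5 with a row, summed to 7.58 to 24.9 TPM in control and 30.1 to 40.2 TPM in denervated muscles. As deposited 3 of these 4 were called higher, yet after scaling 0 of 4 were called and their median log2 fold change was 0.10. Markers of lymphatic endothelium, which expresses Prox1 and Nfatc1, had 5 of 6 rows and summed to 6.18 to 10.4 TPM and 10.7 to 14 TPM. As deposited 3 of these 5 were called higher. After scaling their median was 0.04, with Pdpn called higher and Lyve1 lower. Blood endothelial markers, 6 of 6 with a row, overlapped as deposited at 60.8 to 83.7 TPM and 56.1 to 77.1 TPM, with 0 called, while after scaling 5 of 6 were called lower (median -0.93). Erythroid markers, 3 of 6 with a row, overlapped as deposited at 263 to 624 TPM and 238 to 434 TPM, with 0 called, while after scaling 3 of 3 were called lower (median -1.49). Markers of myelinating Schwann cells, 5 of 6 with a row, summed to 72.6 to 160 TPM and 43.3 to 61.6 TPM, and 2 of 4 tested were called lower on both scales. Fibroadipogenic markers, 6 of 6 with a row, overlapped at 470 to 1113 TPM and 821 to 1566 TPM. As deposited 3 of these 6 were called higher, and after scaling 1 was called lower and 0 higher. Tendon and cartilage markers, 5 of 6 with a row, overlapped at 31.6 to 69.4 TPM and 41.2 to 61.1 TPM, with Scx and Sox9 called higher on both scales. Other Schwann cell markers, 3 of 5 with a row, overlapped at 2.60 to 3.05 TPM and 2.26 to 10.4 TPM. Of 2 tested, 1 was called higher as deposited and 0 after scaling.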

How the data were processed

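Per the labels' protocols, total RNA of whole biceps was amplified (Ovation), turned into Nextera XT libraries and read as pairs of 75 bases. The submitters' processing notes name kallisto 0.42.1 and mm10. How transcripts were summed to genes and the test behind the authors' p-values are not given in the sources used here. The authors deposited log2 values per gene and library with no stated unit, read here as log2(TPM + 1), since TPM is what kallisto writes and no library sums above a full TPM total. TPM values are relative, so a change in a few abundant transcripts moves all others. Deposited p-values, raw and adjusted, are credited to the authors' table, and the signed fold score the authors deposited was not used. Gene IDs restored 18 symbols that had become dates and settled 19 that stood on several rows.

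Genes with at least 1 TPM in at least 3 of 6 libraries entered limma 3.58.1 under R 4.3.3 (lmFit, eBayes with trend, pseudocount 1, Benjamini-Hochberg over 12268 genes), as deposited and after median-of-ratios scaling. The fit was also run on simulated data in which few genes changed and muscles were not paired. That run cannot tell which of the scales is right for these libraries. Fold changes on this scale understate changes of low genes. Ratios used linear TPM. Motifs were searched on both strands of RefSeq promoter windows, and seed matches in GENCODE M21 transcripts. The genes named from each list are up to 3 called on both scales with the largest scaled change, plus the most abundant. Outside that rule, Nfatc2, Nfatc3, Tead2, Yap1, Wwtr1, Rcan1, Sox6os, Myh7, Myh7b, Mybpc1, the other paralogues of the family shares and the calcineurin subunits were chosen with their values in view. The members and lists were chosen with earlier results of these data known. The labels pair the muscles by mouse, and same-mouse deviations correlated across genes at 0.312, 0.183 and 0.411. No batch is given in the labels. Some genes that the rules name are not reported here.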

Additional observations from a re-analysis of the deposited data

How the results depend on the processing

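With the mouse as a replicate block, the counts of members called were 2 higher and 0 lower as deposited and 0 higher and 5 lower after scaling, and no member's call changed; Six4 had an adjusted p of 0.000434 as deposited. Of the counts of members, that of 5 lower after scaling came to 4 in 6 of 18 alternatives, each time without Eya1, and the other counts stayed as they were. The 28 ratio and 28 family share differences kept their direction, an outcome that was fixed in advance. Their groups did not overlap, so leaving out a single library could not turn them, and the replicate block leaves the mean difference unchanged. Of the member fold changes, 219 of 231 kept direction and side. Eya1 after scaling kept its direction under all 18 alternatives, at -0.51 to -0.37, but was called in 12, with adjusted p of 0.0144 to 0.121; leaving out mouse 1, 2 or 3 gave 0.121, 0.0985 and 0.0934. As deposited, Tbx15 ranged from -0.066 to 0.097 with single libraries left out and from -0.091 without mouse 1 to 0.139 without mouse 2, and Nfatc1 from -0.066 to 0.087 and from -0.067 without mouse 1 to 0.049 without mouse 3. Neither was called in any of these, and the cause was not tested. Six4 and Tead1 were called as deposited in 15 of 15 alternatives and after scaling in 0 of 18, and Sox6, Tbx15, Nfatc1 and Vgll2 after scaling in 18 of 18. Scaled Tead1 ranged from -0.28 to -0.02. Over all genes, the 1922 called higher after scaling came to 841 without mouse 1 and 844 without mouse 3, and the 2280 called lower to 1220 and 1280; single libraries brought the higher count to 1212, 1299 and 1262 without denervated replicates 1, 2 and 3. Leaving out a library gives a smaller fit that tests fewer genes. With 3 libraries a group, no outlier could be tested.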
